A study of Homo sapiens with 12 samples.

Results

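Fragments of 10 transcripts known for undifferentiated pluripotent cells were measured in extracellular vesicles (EV): POU5F1, SOX2, NANOG, LIN28A, L1TD1, DNMT3B, DPPA4, TDGF1, ESRG and TERF1. They were taken by gene symbol from the gencode table, which counts pieces of messenger and long noncoding RNA among other transcript classes, and are 10 of its 39666 rows. The protein_coding row was used for each gene, and the sense_intronic row for ESRG, which has no protein_coding row. Small RNA had been sequenced from 12 EV preparations, 3 for each of 4 stages of cardiomyocyte differentiation of the human induced pluripotent stem cell (hiPSC) line iPS(IMR90)-4. All groups share this 1 established line, and the replicates came from separate cultures.

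hiPSC-EV were collected at day 0 from undifferentiated hiPSC after 24 h in TeSR-E8 expansion medium. CPC-EV were collected at day 6, the cardiac progenitor stage, after 72 h in RPMI with B27 without insulin and the Wnt inhibitor IWR1. These cells had earlier received CHIR99021, Activin A and ascorbic acid. CMi-EV of immature cardiomyocytes were collected at day 15 after 48 h in RPMI with B27, and CMm-EV of mature cardiomyocytes at day 35 after 48 h in glucose-free maturation medium with galactose, oleic acid and palmitic acid. The cells of both cardiomyocyte stages grew as 3D aggregates and those of the earlier stages in 2D, so stage and medium cannot be told apart in any comparison. Conditioning time differed along with them except between CMi-EV and CMm-EV, and culture format except between hiPSC-EV and CPC-EV and between CMi-EV and CMm-EV.

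Pluripotent cells keep themselves undifferentiated through a circuit of transcription factors in which OCT4 (encoded by POU5F1), SOX2 and NANOG activate their own genes and one another. Around this circuit work RNA-binding proteins such as LIN28A, which blocks the maturation of the miRNA let-7 and is itself a let-7 target, and chromatin proteins such as the DNA methyltransferase DNMT3B. EV carry small amounts of RNA from the cells that release them, mostly as fragments, so a transcript in EV is read as pieces and not as a whole messenger.

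Sequences of the circuit are shown for the members on which it bears, with the motif in capitals. RefSeq promoter entries (GRCh38.p14, 250 bases before the start searched on both strands) matched 5 of the 10 members. Among these, NANOG and SOX2 held the octamer core ATGCAAA, to which OCT4 binds, or its reverse complement TTTGCAT, and so did 3.94% of 35116 promoters. In NANOG it adjoined the SOX motif CATTGT (9.29% of promoters), and both motifs joined with a single base between them were found in 2 of the 35116 promoters, NANOG included. The windows lie on the plus strand at chr12:7789274-7789303 and chr3:181711814-181711843, and the capitals begin 120 and 100 bases before the start used by the RefSeq entry. For NANOG this start lies downstream of the gene start in GENCODE v44 (chr12:7787794).
NANOG: cagctactTTTGCATTACAATGgccttggt
SOX2: cgccccctttcATGCAAAacccggcagcga

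The third sequence is the match to the let-7 seed (CTACCTC, searched on the transcript strand) in the 3′ untranslated region of LIN28A, in exon 4 at chr1:26427341-26427370 of hg38, plus strand. It was the single match in the 3270 bases of that region in the GENCODE v44 canonical transcript, and none was found in those of the other 8 protein-coding members. Of 3123 untranslated regions at least as long, 18.3% held the letters within their first 3270 bases. The seed of let-7a-5p (bases 2 to 8) is shown in capitals in the mature miRNA, from RefSeq.
LIN28A: ttggagtgcacagcctattgaaCTACCTCa
let-7a-5p: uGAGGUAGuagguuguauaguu

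All 10 members had at least 1 count in each of the 3 hiPSC-EV libraries, whereas CMi-EV and CMm-EV held few of them. Of 30 combinations of member and library per group, all 30 had a count in hiPSC-EV, while 16 did so in CPC-EV, 6 in CMi-EV and only 4 in CMm-EV. NANOG was the single member without a count in CPC-EV, and 7 members were at 0 in all CMi-EV libraries. In CMm-EV, 7 members were again at 0, with LIN28A and ESRG in place of NANOG and SOX2. Many rows outside the members were at 0 as well. Among rows averaging at least 2 counts over hiPSC-EV and the other group, 3774 of 10568 were at 0 in CMi-EV. In CMm-EV it was 4607 of 9908, and in CPC-EV 1719 of 14586. Rows with a count numbered 6547 to 20794 per hiPSC-EV library and 3699 to 4612 per CMm-EV library. The summed counts of the members were 812, 1844 and 1666 in hiPSC-EV 1 to 3, 196, 747 and 439 in CPC-EV, 48, 20 and 3 in CMi-EV, and 1, 18 and 1 in CMm-EV.

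**Figure D1:**
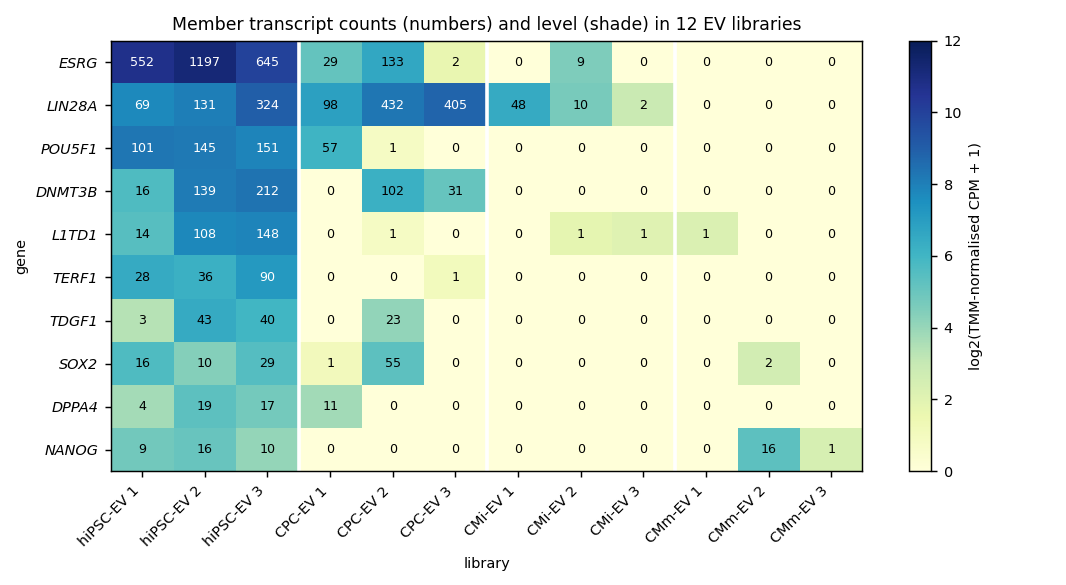
Heatmap of the 10 members (vertical axis) in the 12 libraries (horizontal axis), with rounded counts as numbers and log2(TMM-normalised CPM + 1) as shade. All 30 fields of hiPSC-EV hold a count, against 4 of 30 in CMm-EV.

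These counts rest on gencode totals of 307432 to 1908539 in hiPSC-EV, 733331 to 1314249 in CPC-EV, 219118 to 499729 in CMi-EV and 131423 to 322334 in CMm-EV. Levels are given as CPM, gencode counts scaled to a common library size after TMM normalisation (a trimmed mean of log ratios between libraries), whose factors ran from 0.339 in hiPSC-EV 3 to 2.08 in CMm-EV 1. A count of 0 allows a level of 3 counts, equal to 4.63 CPM in the library hiPSC-EV 3 and 12.9 CPM in the library CMm-EV 3. For the 3 libraries of a group together, this limit was 2.04 CPM for hiPSC-EV, 0.938 CPM for CPC-EV, 2.33 CPM for CMi-EV and 3.26 CPM for CMm-EV. Such limits and the intervals of ratios cover counting error only, since no molecular identifiers are known of, and replicates differed by more than that (chi-square per degree of freedom from 14.4 to 44.7 between pairs). A lower level in EV could come from fewer EV of a cell type or from less RNA in each, which cannot be told apart here.

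Depth, scaling and the overall amount of messenger fragments moved along with the stages, so the members were also set against 10 genes that all cells use (such as EEF1A1, ACTB and EEF2) within each library, which needs no scaling. Summed member counts were 99.8%, 90.1% and 46.0% of the summed counts of these genes in hiPSC-EV. They were 6.24%, 13.4% and 17.3% in CPC-EV, 5.77%, 3.03% and 0.831% in CMi-EV, and 0.298%, 4.75% and 0.461% in CMm-EV. The lowest hiPSC-EV library lay above the highest of the 9 others. The genes of all cells themselves summed to between 2477 and 5586 CPM for hiPSC-EV but between 915 and 1229 CPM for CMm-EV, and the part of this decrease in the levels of the members was not tested.

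Over all libraries, hiPSC-EV were compared with the mean of the 3 other groups with the quasi-likelihood test of edgeR, with a call where the Benjamini-Hochberg adjusted p (FDR) was at most 0.05 and the log2 fold change reached 1. Of the 10 members, 7 were called, all higher in hiPSC-EV, where 4.77% of the 12439 tested rows were called in either direction and 4.54% higher in hiPSC-EV. These 7 were ESRG, POU5F1, DNMT3B, L1TD1, TERF1, LIN28A and TDGF1, whereas SOX2, NANOG and DPPA4 were not called. Without hiPSC-EV 3, 3 of the 10 members were called (POU5F1, DNMT3B and ESRG) against 0.343% of all rows, and with library size as the only scaling the same 3 against 0.539%, where 39 rows were called higher and 28 lower in hiPSC-EV, against 565 and 28 with TMM. DESeq2 called 4 (POU5F1, L1TD1, ESRG and TERF1) against 0.434%, and a filter of 5 CPM in each library of at least 1 group gave all 10 against 22.8%. Apart from LIN28A, the members met that filter through hiPSC-EV alone, the group where they are high, so this count is no support. With no test, all 3 hiPSC-EV libraries lay above the 9 others for 4 members (POU5F1, L1TD1, ESRG and TERF1), as for 3.33% of rows. On pooled normalised counts, the log2 ratio of hiPSC-EV over the 9 other libraries was lowest among the members with 0.95 for LIN28A. Its median over all tested rows was -0.20, with a group at 0 put at 3 counts. TERF1, L1TD1, DPPA4, NANOG and TDGF1 held 1, 4, 11, 17 and 23 counts in these 9 libraries. They passed the filter on low counts (a mean of at least 2 counts per library) through hiPSC-EV, so no median is given for the members. For the same reason the calls of TERF1, L1TD1 and TDGF1 are no support. The called members POU5F1, LIN28A, DNMT3B and ESRG held 58, 995, 133 and 173 counts in the 9 libraries and would pass without hiPSC-EV. The fitted contrast, which averages groups on the log scale, had a median of 1.50 over all tested rows with TMM, 1.12 with median-of-ratios factors, 1.00 with library sizes of 5 RNA classes and 0.53 with library size alone.

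**Figure D2:**
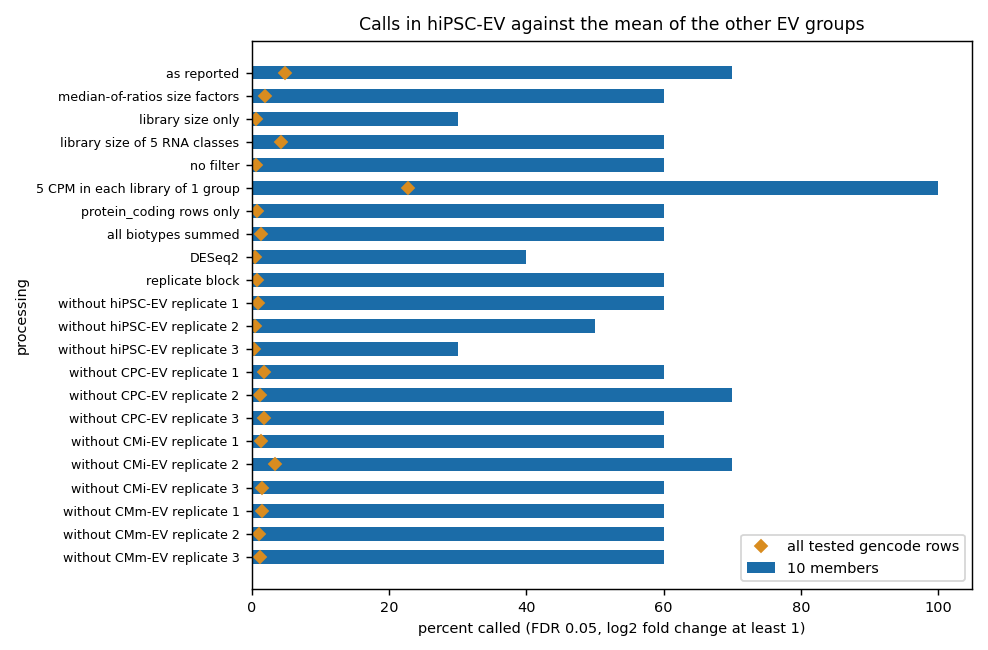
Percent of the 10 members (bars) and of all tested gencode rows (diamonds) called in hiPSC-EV against the mean of the other EV groups, on the horizontal axis, for each way of processing on the vertical axis. Members called ranged from 3 to 10 of 10, and the share of all rows stood below that of the members in each. TERF1, L1TD1, DPPA4, NANOG and TDGF1 passed the filter on low counts through hiPSC-EV, so their calls are no support.

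POU5F1 encodes OCT4, the transcription factor without which pluripotency is lost, and lies at chr6:31164337-31180731 (hg38, minus strand). Its counts were 101, 145 and 151 in hiPSC-EV 1 to 3, 57, 1 and 0 in CPC-EV, and 0 in all 6 libraries of CMi-EV and CMm-EV. Each hiPSC-EV library lay above every other library, and within CPC-EV nearly all counts came from CPC-EV 1. The mean level was 278 ± 39.2 CPM (SD, n = 3) in hiPSC-EV, the smallest relative spread among the members, and 22.3 ± 38.1 CPM in CPC-EV. POU5F1 was higher in hiPSC-EV than in the mean of the other groups (edgeR FDR 1.46e-05), and on pooled counts at least 116-fold higher than in CMi-EV and at least 82.8-fold higher than in CMm-EV. Against CPC-EV alone, the log2 fold change of CPC-EV over hiPSC-EV was -3.82 with a standard error (SE) of 1.17 (edgeR FDR 0.352), and POU5F1 was not called. Without CPC-EV 1, which held 57 of the 58 counts of this group, it was called lower in CPC-EV, with a log2 fold change of -9.07 (edgeR FDR 7.97e-05).

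Part of the POU5F1 reads could not be placed with certainty, since its near-identical copy POU5F1B took counts in a nearly fixed proportion. These were 24.9%, 29.8% and 26.6% of the POU5F1 counts in hiPSC-EV 1 to 3 and 30.2% in CPC-EV 1, the 4 libraries with at least 10 POU5F1 counts. Rows of copies or overlapping genes, 6 in all, together held 52.5, 70.1 and 74.7 counts in hiPSC-EV 1 to 3 and 24.6 in CPC-EV 1. None of the POU5F1 values was a whole number, as where reads are shared between features.

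SOX2, the single-exon partner of OCT4 at chr3:181711925-181714436 (hg38, plus strand), was counted 16, 10 and 29 times in hiPSC-EV, 1, 55 and 0 times in CPC-EV, 0 times in CMi-EV, and 0, 2 and 0 times in CMm-EV. CPC-EV 2 with 38.9 CPM stood between the hiPSC-EV libraries (20.2 to 48.7 CPM), so the groups overlapped. SOX2 was not called in hiPSC-EV against the other groups (edgeR FDR 0.158) nor in CPC-EV against hiPSC-EV (log2 fold change -1.72, SE 1.77, edgeR FDR 0.839). A row of another biotype under this symbol (sense_overlapping) had 9 counts in CMi-EV 3, and summing the biotypes moved the log2 fold change of hiPSC-EV over the other groups from 4.40 to 2.51 (edgeR FDR 0.471), without a call. SOX2 lies within SOX2-OT on the same strand, from which its reads may not be separable.

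NANOG, the third factor of the circuit (chr12:7787794-7799146, hg38, plus strand), had 9, 16 and 10 counts in hiPSC-EV, 0 in all 6 libraries of CPC-EV and CMi-EV, and 0, 16 and 1 in CMm-EV. The level of 38.6 CPM in CMm-EV 2 exceeded all 3 hiPSC-EV libraries (15.4 to 32.3 CPM), and NANOG was the single member whose hiPSC-EV libraries did not all lie above those of CMm-EV. The 9 others did so, as 16.9% of rows did, and against CMi-EV all 10 members did, as 13.5% of rows did. It was not called in hiPSC-EV against the other groups (edgeR FDR 0.106). On pooled counts NANOG was at least 25.3-fold higher in hiPSC-EV than in CPC-EV and at least 10.2-fold higher than in CMi-EV, but 1.29-fold higher than in CMm-EV (95% counting interval 0.702 to 2.45). The last ratio rests on CMm-EV 2, which held 16 of the 17 counts of CMm-EV. Without it the pooled ratio was 12.0 (95% counting interval 2.02 to 489, on 1 count in CMm-EV), and the log2 fold change of CMm-EV over hiPSC-EV moved from -1.24 (edgeR FDR 0.671) to -3.87 (edgeR FDR 0.322), with no call.

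LIN28A, the RNA-binding protein that restrains let-7 (chr1:26410817-26429728, hg38, plus strand), had the pooled ratio of hiPSC-EV over CPC-EV closest to 1 among the members, 1.22 (95% counting interval 1.09 to 1.36), followed by SOX2 with 2.13 (1.44 to 3.15). Its counts were 69, 131 and 324 in hiPSC-EV, 98, 432 and 405 in CPC-EV, 48, 10 and 2 in CMi-EV, and 0 in all CMm-EV libraries. The levels in hiPSC-EV (325 ± 154 CPM, n = 3) and CPC-EV (286 ± 163 CPM, n = 3) overlapped, and every library of both lay above the highest of CMi-EV, 85.7 CPM. CPC-EV differed from hiPSC-EV by a log2 fold change of -0.37 (SE 0.77, edgeR FDR 0.983), which turned to 0.86 with library size alone and to 0.94 with library sizes of 5 RNA classes, and no setting gave a call.

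LIN28A was the most counted member in all 3 CPC-EV libraries, where it made up 50.0%, 57.8% and 92.3% of the member CPM, against 8.50%, 7.10% and 19.4% in hiPSC-EV. From CPC-EV to CMi-EV it was 6.27-fold lower on pooled counts (95% counting interval 4.83 to 8.28), but the test did not call it (log2 fold change -2.90, SE 1.13, edgeR FDR 0.334). In CMm-EV against hiPSC-EV, LIN28A was called lower (edgeR FDR 0.00629) and on pooled counts at least 109-fold lower. Against the mean of the other groups, hiPSC-EV were called higher (edgeR FDR 0.00714), although on pooled counts over the 9 other libraries they were 1.93-fold higher (95% counting interval 1.74 to 2.15), since CPC-EV held most of these counts.

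The let-7 family, whose seed match LIN28A carries, was measured in the same libraries. The summed level of 9 5p miRNA of the family, miR-98 included, was 1514 to 2134 CPM of miRNA counts without TMM in hiPSC-EV, 449 to 676 CPM in CPC-EV, 802 to 854 CPM in CMi-EV and 9458 to 13775 CPM in CMm-EV. The sum was lowest in CPC-EV and highest in CMm-EV, whereas let-7a-5p alone was lowest in CMi-EV, with 98.9 to 181 CPM against 322 to 415 CPM in CPC-EV. hiPSC-EV had a higher sum than CPC-EV, while the levels of LIN28A in both groups overlapped.

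L1TD1 is an RNA-binding protein derived from a transposable element that is found in pluripotent cells and lies at chr1:62194849-62212328 (hg38, plus strand). It had 14, 108 and 148 counts in hiPSC-EV, and no more than 1 count in any of the 9 other libraries, with 1, 2 and 1 summed over the libraries of CPC-EV, CMi-EV and CMm-EV. All 3 hiPSC-EV libraries (42.6 to 229 CPM) lay above all others, of which the highest had 3.66 CPM. L1TD1 was called in hiPSC-EV against the other groups (log2 fold change 7.21, SE 1.73, edgeR FDR 0.00110) and already in CPC-EV against hiPSC-EV (log2 fold change -8.75, SE 1.63, edgeR FDR 0.0127). In CMm-EV against hiPSC-EV it narrowly missed the threshold (edgeR FDR 0.0563).

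ESRG, a long noncoding RNA transcribed from an endogenous retroviral element in pluripotent cells, was the most counted member. It lies at chr3:54632122-54639857 (hg38, minus strand), within CACNA2D3 on the opposite strand, and strand use in the counting is not given in the sources used here. Its counts were 552, 1197 and 645 in hiPSC-EV, 29, 133 and 2 in CPC-EV, 0, 9 and 0 in CMi-EV, and 0 in all CMm-EV libraries. The lowest hiPSC-EV library, with 996 CPM, lay above the highest of the others, CPC-EV 2 with 94.2 CPM.

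The mean level of ESRG was 1697 ± 709 CPM (n = 3) in hiPSC-EV and 43.4 ± 46.8 CPM in CPC-EV. ESRG was higher in hiPSC-EV than in the mean of the other groups (edgeR FDR 1.12e-14), and CPC-EV were lower than hiPSC-EV by a log2 fold change of -5.51 (SE 0.77, edgeR FDR 0.0115). CMi-EV were 232-fold lower than hiPSC-EV on pooled counts (95% counting interval 122 to 509), and CMm-EV at least 499-fold lower. ESRG made up 68.0%, 64.9% and 38.7% of the member CPM in hiPSC-EV 1 to 3, but 14.8%, 17.8% and 0.456% in CPC-EV 1 to 3.

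DNMT3B, the de novo DNA methyltransferase of early embryonic cells (chr20:32762385-32809359, hg38, plus strand), had 16, 139 and 212 counts in hiPSC-EV and 0, 102 and 31 in CPC-EV. It had none in the 6 libraries of CMi-EV and CMm-EV. hiPSC-EV 1 with 48.7 CPM lay below CPC-EV 2 with 72.2 CPM, so these groups overlapped, whereas the mean was 219 ± 149 CPM in hiPSC-EV and 35.2 ± 36.1 CPM in CPC-EV (n = 3 each). DNMT3B was called in hiPSC-EV against the other groups (edgeR FDR 0.000176), but not in CPC-EV against hiPSC-EV (log2 fold change -2.87, SE 1.13, edgeR FDR 0.409). On pooled counts it was at least 107-fold higher in hiPSC-EV than in CMi-EV and at least 76.5-fold higher than in CMm-EV.

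DPPA4, a chromatin protein of pluripotent cells (chr3:109326144-109337546, hg38, minus strand), was among the least counted members. It had 4, 19 and 17 counts in hiPSC-EV, 11, 0 and 0 in CPC-EV, and 0 in the 6 later libraries. CPC-EV 1 (12.8 CPM) stood just above hiPSC-EV 1 (12.2 CPM), and DPPA4 was not called in hiPSC-EV against the other groups (edgeR FDR 0.110). Rows of 3 other biotypes under this symbol held 58.5 counts in hiPSC-EV, more than the 40.7 expected counts of the protein_coding row, and 21.3 in CPC-EV.

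TDGF1, the Nodal co-receptor also called Cripto (chr3:46574534-46582457, hg38, plus strand), had 3, 43 and 40 counts in hiPSC-EV, 0, 23 and 0 in CPC-EV, and 0 in the 6 later libraries. hiPSC-EV 1 with 9.13 CPM lay below CPC-EV 2 with 16.3 CPM. TDGF1 passed the threshold in hiPSC-EV against the other groups (edgeR FDR 0.0444), but in 18 of 21 alternative settings it did not. Its 5 processed copies and overlapping rows held 63.7 counts in hiPSC-EV, beside 85.6 expected counts of the gene, and no TDGF1 value was whole. In CMi-EV 3 such a copy had 29 counts where TDGF1 had 0.

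TERF1, a protein of the shelterin complex that binds telomere repeats, had 28, 36 and 90 counts in hiPSC-EV, 0, 0 and 1 in CPC-EV, and 0 in the 6 later libraries. All 3 hiPSC-EV libraries (72.6 to 139 CPM) thus lay far above all others, of which the highest had 1.08 CPM. TERF1 was called in hiPSC-EV against the other groups (edgeR FDR 0.00257) and just passed in CPC-EV against hiPSC-EV (log2 fold change -7.79, SE 1.71, edgeR FDR 0.0488), where 11 of 16 alternative settings did not call it. Rows of its processed copies held 47 counts in CPC-EV 3, where the gene had 1 count, and 0 in the other CPC-EV libraries, and rows of other biotypes held 28 in CPC-EV 1.

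**Figure D3:**
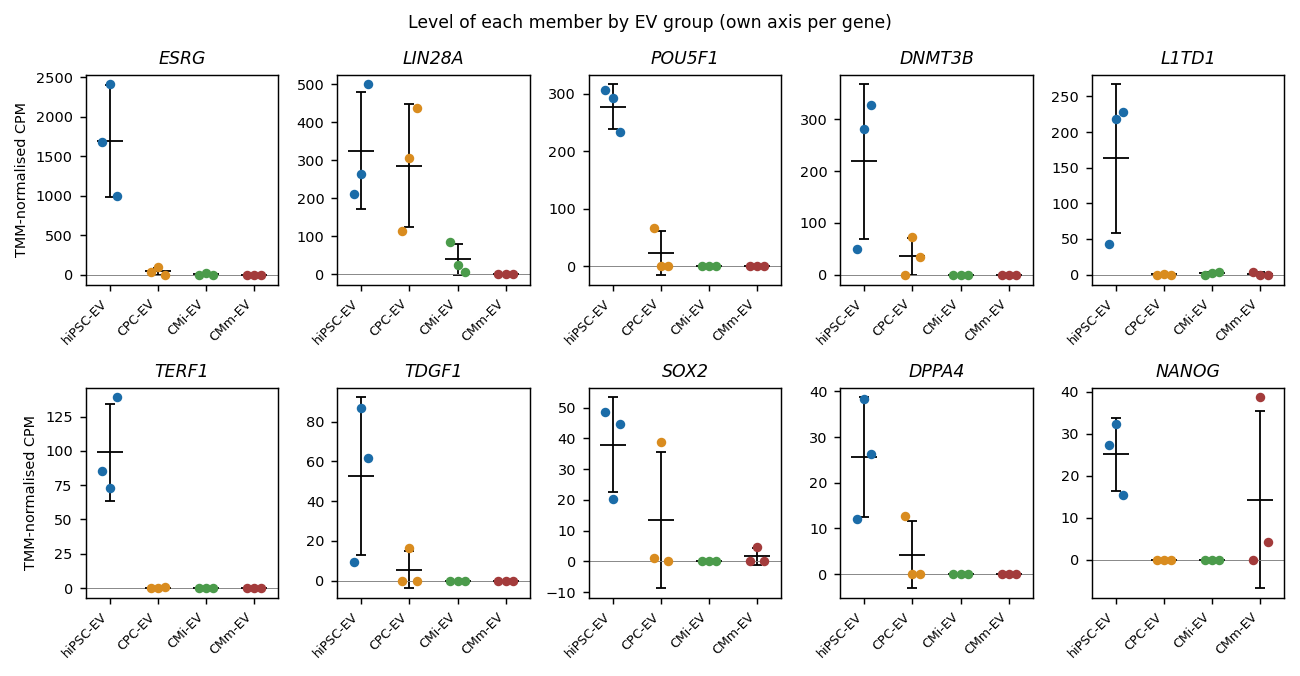
Level of each member in TMM-normalised CPM (vertical axis, own scale per gene) in the 4 EV groups (horizontal axis). Points are libraries and black lines the mean ± SD of 3. LIN28A was at 325 CPM in hiPSC-EV and 286 CPM in CPC-EV, while ESRG was at 1697 and 43.4 CPM.

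Per kilobase of the canonical transcript of GENCODE v44, ESRG held the highest mean level in hiPSC-EV (540 CPM per kb), followed by POU5F1 (197) and LIN28A (81.7). DNMT3B (50.5), L1TD1 (42.5), TERF1 (29.7) and TDGF1 (26.9) had intermediate levels per kb. SOX2 (15.1), DPPA4 (9.17) and NANOG (4.83) were lowest. In CPC-EV, LIN28A led with 71.9 CPM per kb, followed by POU5F1 (15.8) and ESRG (13.8). The spread between libraries exceeded the steps between neighbours in most of this order, and no test was made between genes. Whether fragment counts scale with transcript length was not tested, and the annotation version of the counted rows is not given in the sources used here.

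Stage by stage, the first step was compared in the 6 libraries of hiPSC-EV and CPC-EV. Here 3 of 10 members were called, all lower in CPC-EV (ESRG, L1TD1 and TERF1), where 0.219% of 14586 rows were called and 0.171% were called lower. With TMM 7 rows were called higher and 25 lower in CPC-EV, which became 73 higher and 27 lower with library size alone and 76 and 25 with library sizes of 5 RNA classes. L1TD1 and ESRG were called lower in both. For all tested rows, the median log2 ratio of hiPSC-EV over CPC-EV on pooled counts was -0.16. NANOG, L1TD1, TERF1 and DPPA4 had 0, 1, 1 and 11 counts in CPC-EV and passed the filter on low counts through hiPSC-EV. No median is therefore given for the members, and the calls of L1TD1 and TERF1 are no support. Of the 3 called members, ESRG alone had enough counts in CPC-EV (164) to pass without hiPSC-EV. Without hiPSC-EV 1, 1 of the 10 members was called (L1TD1), with 0.111% of all rows. For 5 members (SOX2, LIN28A, DNMT3B, DPPA4 and TDGF1) at least 1 CPC-EV library reached the range of hiPSC-EV, and for the other 5 all hiPSC-EV libraries lay above all of CPC-EV, as for 6.09% of rows. These comparisons share the hiPSC-EV libraries with that against all other groups and with that of CMm-EV.

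**Figure D4:**
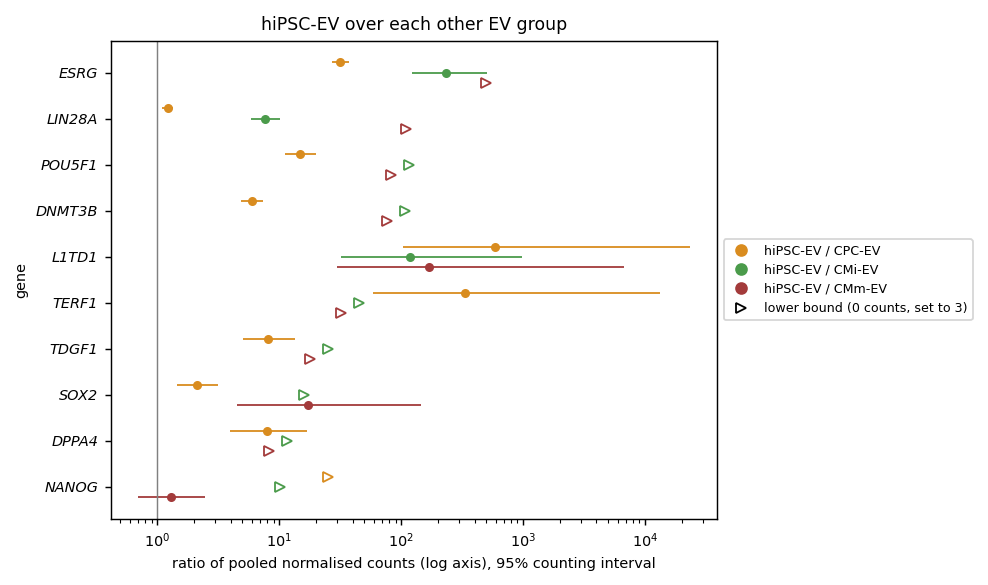
Ratio of hiPSC-EV over each other EV group on pooled normalised counts (horizontal log axis) for each member (vertical axis). Filled points have 95% counting intervals, and open triangles are lower bounds where the other group had 0 counts. LIN28A lay at 1.22 against CPC-EV and at 7.63 against CMi-EV.

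At the second step, from CPC-EV to CMi-EV, 6 members had enough counts to be tested and none was called with edgeR or with DESeq2, where edgeR called 0.421% of 13058 rows. LIN28A and DNMT3B had an unadjusted p of 0.0162 and 0.0343, and they were the 2 members below 0.05. Of these 6, POU5F1, SOX2, DNMT3B and TDGF1 had no count in CMi-EV and passed the filter on low counts through CPC-EV, so no median is given for this step. Between CMi-EV and CMm-EV, 2 members could be tested (LIN28A and NANOG), and neither was called nor had an unadjusted p below 0.05 with edgeR, where 0.1% of 6984 rows were called. DESeq2 called neither as well.

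Between both ends of the differentiation, CMm-EV against hiPSC-EV, 4 of 10 members were called, all lower in CMm-EV (ESRG, LIN28A, POU5F1 and DNMT3B), where 0.626% of 9908 rows were called and 0.505% lower. With library size alone this split turned round to 37 rows higher and 12 lower in CMm-EV, with ESRG as the single member called (lower), and it was 12 higher and 20 lower with median-of-ratios factors, against 12 and 50 with TMM. The 4 called members had no count in CMm-EV and passed the filter on low counts through hiPSC-EV, as did 7 of the 10. No median is therefore given, and the 4 calls are no support. Without hiPSC-EV 1, no member and no other row was called. With the filter of 5 CPM, which the members met through hiPSC-EV alone, 9 of 10 members were called, but so were 50.8% of 2153 rows. In the test of any difference across the 4 groups, 6 of 10 members were called (ESRG, POU5F1, DNMT3B, LIN28A, L1TD1 and TERF1), against 1.75% of 12439 rows. L1TD1 and TERF1 passed the filter on low counts through hiPSC-EV here too, so their calls are no support. Without hiPSC-EV 3, this test called 3 members and 0.82% of all rows.

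Other genes of pluripotent cells, 60 in a list chosen with earlier results of these data known, were searched in the same table, and 56 had a row. Of these, 41 could be tested in hiPSC-EV against the other groups and 21 were called, all higher in hiPSC-EV, against 4.54% of all tested rows in that direction. This count fell to between 1 and 15 in the 21 alternative settings. It was 15 with the filter of 5 CPM, where 22.8% of all rows were called. It was 1 (CD24) in DESeq2 (0.434% of all rows), with library size alone (0.539%), without hiPSC-EV 2 (0.436%) and without hiPSC-EV 3 (0.343%). Among the called genes, USP44, THY1, CD9, ZSCAN10, PRDM14 and FGF2 had 0 counts in the other groups, RIF1 had 1 and LINC00678 had 7. They passed the filter on low counts through hiPSC-EV, so their calls are no support. CD24, JARID2, LINC00458 and PIM2 held 359, 61, 43 and 24 counts in the other groups and would pass without hiPSC-EV. For the remaining called genes this is not shown. The 21 of 41 against 4.54% is therefore not read as an enrichment, and no median is given for the 41. Across the 4 groups 6 were called, against 1.75% of all rows. In CPC-EV against hiPSC-EV 1 was called (RIF1, lower) against 0.219% of all rows, and in CMm-EV against hiPSC-EV 2 (CD24 and SEPHS1, lower) against 0.626%. DESeq2 called 3 across the 4 groups against 0.659% of all rows, 4 in CPC-EV against hiPSC-EV (RIF1, THY1, CD9 and USP44, lower) against 1.19%, and 1 in CMm-EV against hiPSC-EV (CD24, lower) against 0.444%. RIF1, THY1, CD9 and USP44 had no count in CPC-EV, and CD24 had none in CMm-EV. Their calls in these pairs of groups, with either tool, are therefore no support. Neither tool called any at the other 2 steps, where edgeR called 0.421% and 0.1% of all rows, 4 and 2 of these genes had an unadjusted p below 0.05 with edgeR, and DESeq2 called none of all tested rows at the second step.

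Among the surface proteins of this list, CD24 had 38, 198 and 359 counts in hiPSC-EV, 37, 243 and 79 in CPC-EV, and 0 in the 6 later libraries (edgeR FDR 3.88e-06 for hiPSC-EV against the other groups). THY1 and the tetraspanin CD9, a protein of many EV, had 12, 23 and 44 and 6, 20 and 20 counts in hiPSC-EV, and neither had a count in the 9 other libraries. Of the chromatin and nuclear factors, RIF1, a telomere- and replication-associated protein, had 16, 50 and 75 counts in hiPSC-EV and 1 count in the 9 other libraries together. JARID2, a partner of Polycomb complexes, had 62, 34 and 48 counts in hiPSC-EV and 1, 54 and 6 in CPC-EV.

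The transcription factor ZSCAN10 had 15, 2 and 24 counts and PRDM14 had 0, 21 and 16 in hiPSC-EV, and neither was counted elsewhere. The same held for the deubiquitinase USP44 with 0, 36 and 58 counts and for the growth factor FGF2 with 0, 5 and 30. The kinase PIM2 had 15, 27 and 86 counts in hiPSC-EV and 14, 10 and 0 in CPC-EV. The long noncoding RNA LINC00458 had 20, 65 and 92 counts in hiPSC-EV and 43 in CPC-EV 3 alone, and LINC00678 had 4, 19 and 69 in hiPSC-EV and 7 in CPC-EV 2 alone. For these 12 genes the counts of CMi-EV and CMm-EV were 0, except for 1 count of RIF1 in CMm-EV 3, but they were named for the size of their fold change, which favours such zeros. Of all 56 genes, 13 had a count in CMi-EV and 15 in CMm-EV. Their summed level was 493, 366 and 79.2 CPM in CMi-EV 1 to 3 and 80.5, 685 and 326 CPM in CMm-EV 1 to 3, and the lowest pooled log2 ratio of hiPSC-EV over the 9 other libraries was -2.50 among the 41 tested.

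**Figure D5:**
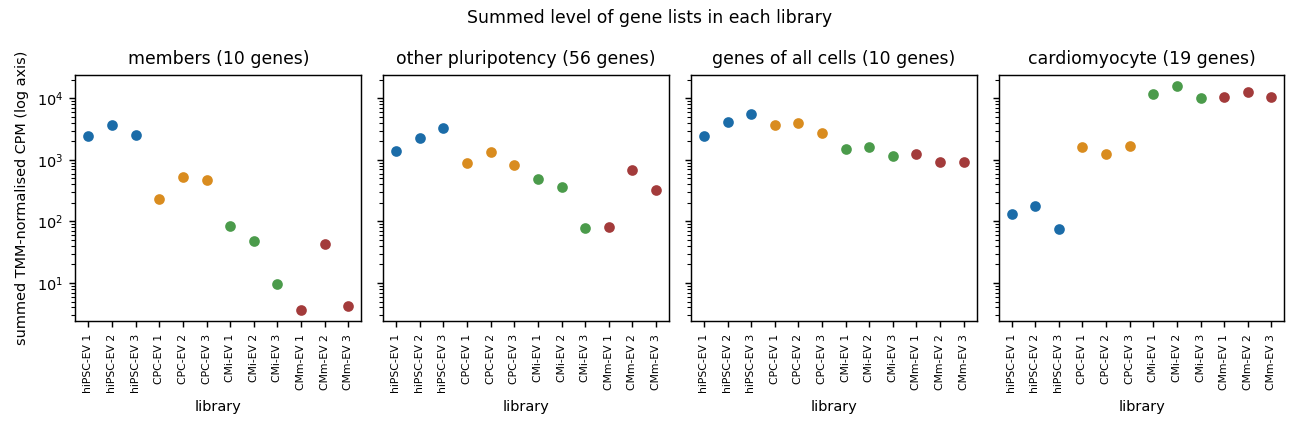
Summed TMM-normalised CPM (vertical log axis) of the members, other pluripotency genes, genes of all cells and cardiomyocyte genes in each of the 12 libraries (horizontal axis). The members ran from 3719 CPM in hiPSC-EV 2 to 3.66 CPM in CMm-EV 1, while cardiomyocyte genes ran from 75.7 to 16029 CPM.

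The labels of the groups were checked with genes of other cell types. Cardiomyocyte genes (19 in the table) summed to 75.7 to 180 CPM in hiPSC-EV, 1260 to 1706 CPM in CPC-EV, 10317 to 16029 CPM in CMi-EV and 10565 to 12842 CPM in CMm-EV, and 9 of 18 tested were called lower in hiPSC-EV than in the other groups, as were 28 of all 12439 tested rows (0.225%). Without hiPSC-EV 1, 2 or 3, MYH6 and TTN were the 2 of these genes called lower each time, against 0.0315%, 0.0323% and 0.0251% of all rows called lower. MYH6, the atrial myosin heavy chain, had 1 count in hiPSC-EV and 102 to 1095 counts in every library of CMi-EV and CMm-EV. TTN made up most of the summed level, with a mean of 8624 of 12641 CPM in CMi-EV and 7866 of 11342 CPM in CMm-EV. In CPC-EV its mean was 1081 of 1533 CPM. Cardiac progenitor genes (12 in the table) summed to 33.5 to 57.1 CPM in hiPSC-EV, 90.7 to 411 CPM in CPC-EV, 157 to 344 CPM in CMi-EV and 101 to 399 CPM in CMm-EV, so hiPSC-EV lay lowest. Of the 9 tested in hiPSC-EV against the other groups, edgeR called none, with 3 at an unadjusted p below 0.05, and DESeq2 called 1, GATA4. GATA4 had 0 counts in hiPSC-EV, and 47, 83 and 25 in CPC-EV. The receptor KDR went the other way, with 10, 27 and 33 counts in hiPSC-EV and 26 in CPC-EV 2 alone among the CPC-EV libraries. ISL1 and NKX2-5 have no row in the table.

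Rows whose level most resembled the summed CPM of the members were sought among 3004 others with a mean of at least 10 counts, by Pearson's r over the 12 libraries on log2(CPM + 1), as a description of libraries that also share depth and scaling. The 8 highest ran from 0.917 to 0.934. They were PTMAP5 (processed_transcript), CCT7, MYBL2, PDIA6, SPRY4, RNY1P13 (misc_RNA), PODXL (nonsense_mediated_decay) and MSN. PODXL, the surface sialomucin that carries epitopes used to stain pluripotent cells, had 30, 105 and 162 counts in hiPSC-EV, 37, 90 and 41 in CPC-EV, and 0 in the 6 later libraries. RNY1P13, a Y RNA pseudogene, had 12 to 32 counts in CMm-EV.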

How the data were processed

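The members and gene lists were chosen with earlier results of these data known. The deposited gencode table holds expected counts per feature, made by the authors with exceRpt 4.6.2 on hg38 from libraries of the Norgen small RNA kit (NextSeq 500). The version of the gencode annotation is not given in the sources used here. The submitters' processing notes name edgeR 3.24.0. Of the non-zero expected counts, 69.9% were not whole (tolerance 1e-06), as reads that fit several features are shared out, and all were rounded. Library totals came from the deposited RPM tables and let-7 levels from the deposited miRNA counts.

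Rows with a mean of at least 2 counts per library of a fit were tested with glmQLFit and glmQLFTest of edgeR 4.0.16 (R 4.3.3), TMM scaling and a two-sided p, adjusted by Benjamini-Hochberg across every tested row. Pairs of groups were fitted on their own 6 libraries, the other comparisons on all 12. A call needed an FDR of at most 0.05 and, except across 4 groups, an absolute log2 fold change of 1 or more. Standard errors are left out where a group had no counts. Ratios used counts pooled over a group and divided by TMM library sizes, with a 95% exact (Clopper-Pearson) interval, or a bound against 3 counts per group where it had none.

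Named were all members, up to 12 other pluripotency genes called in hiPSC-EV by size of log2 fold change, up to 4 markers per list by mean CPM, and the 8 rows most alike. Alternatives were other scaling, filters, rows and tests (DESeq2 1.42.0), the replicate number as a block, and leaving out each library. Other steps ran in Python 3.11.15 (pandas 2.3.3, numpy 2.4.6, scipy 1.17.1, matplotlib 3.10.9), and coordinates are those of GENCODE v44. The authors' comparisons and normalized miRNA tables were not used here.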

Additional observations from a re-analysis of the deposited data

How the results depend on the processing

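POU5F1 and ESRG were called in hiPSC-EV against the other groups in all 21 alternative settings, DNMT3B in all but DESeq2, and SOX2, NANOG and DPPA4 in 1, the filter of 5 CPM in each library of 1 group. For members called in hiPSC-EV against the mean of the others (7 as reported), library size alone gave 3 (0.539% of all rows) and DESeq2 4 (0.434%), and leaving out 1 library gave 3 to 7 (0.343% to 3.38%). Calls of TERF1, L1TD1 and TDGF1 in these counts are no support, since these members passed the filter on low counts through hiPSC-EV. Across the 4 groups (6 as reported, 1.75% of all rows), library size alone gave 3, while the share of all rows rose to 2.89%, DESeq2 gave 3 (0.659%), and leaving out 1 library 3 to 6 (0.638% to 2.52%). In CPC-EV against hiPSC-EV (3 as reported), 1 fit of all 12 libraries gave 1 (0.121% of all rows), and leaving out 1 library 1 to 3 (0.111% to 0.457%). In CMm-EV against hiPSC-EV (4 as reported), library size alone gave 1 (0.495% of all rows), the filter of 5 CPM gave 9 (with 50.8% of 2153 rows called), and leaving out 1 library 0 to 6 (0% to 2.12%). That filter gave 10 members in hiPSC-EV against the others, with 22.8% of 3381 rows called. In CMm-EV against hiPSC-EV all members met it through hiPSC-EV alone, and in hiPSC-EV against the others all but LIN28A did. Counts of members stayed at 0 at the 2 later steps in all 16 settings each. The share of all rows called in these settings ran from 0% to 30.5% and from 0% to 12.2%. It was highest with the filter of 5 CPM, where 1 member could be tested at each step. LIN28A in CPC-EV against hiPSC-EV changed sign with library size alone (0.86), library sizes of 5 RNA classes (0.94), without hiPSC-EV 3 and without CPC-EV 1, with -0.77 to 0.13 when 1 library was left out. NANOG in CMm-EV against hiPSC-EV changed sign with library size alone (0.0236). The cause was not tested. All rows called in hiPSC-EV against the others fell from 593 to 236 with median-of-ratios factors, 67 with library size alone, 54 with DESeq2 and 41 without hiPSC-EV 3. With the replicate number as a block, 6 members and 85 rows (0.683%) were called in that comparison, 4, 3 and 4 members across the 4 groups, in CPC-EV and in CMm-EV against hiPSC-EV (0.86%, 0.137% and 0.676% of all rows), and none at the 2 later steps (0.299% and 0%). POU5F1 in CPC-EV against hiPSC-EV was called with the block (log2 fold change -7.03, edgeR FDR 0.0312). None of 18 same-numbered pairs had a correlation of deviations over 0.1 (-0.0430 to 0.0376), and 3 of 12 libraries correlated best with their own number. Replicates differed by far more than counting error, so this check cannot exclude that the numbers pair libraries.

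Depth limits the later stages, where 3 counts over the group equal 2.33 CPM in CMi-EV and 3.26 CPM in CMm-EV, so that the level of DPPA4 in hiPSC-EV could fall no more than 11.7-fold and 8.34-fold before it was lost from sight. Near-identical copies, shared reads and unstated strand use limit POU5F1, NANOG, DPPA4, TDGF1, TERF1, SOX2 and ESRG. For NANOG, 6 rows of copies or overlapping genes held 13.1 counts in hiPSC-EV beside 34.6 expected counts of the gene. Of its 6 non-zero values 3 were whole, and of the 4 of DPPA4 0 were whole.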

Other observations

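Genes of cardiac progenitors and of endoderm were counted at several stages, some of them in single libraries. HAND2 had 0 counts in hiPSC-EV and CMi-EV, 38, 211 and 27 in CPC-EV, and 30, 0 and 8 in CMm-EV. TBX20 was counted in CPC-EV 3 alone among the CPC-EV libraries, with 27 counts. KDR, a receptor of endothelial and progenitor cells, had 33 counts in CMm-EV 3 and 0 in the other libraries of the cardiomyocyte stages. APOB, a liver and endoderm gene, had 60 and 111 counts in CPC-EV 2 and CPC-EV 3, 33 in CMi-EV 3, and 1 in all 3 hiPSC-EV libraries together.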
